A study of Homo sapiens with 12 samples.

Results

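The count tables held 869 loci that carry an identifier with a running number and a prefix for newly found loci, and no gene name, out of 47219 loci in all. They were chosen by that identifier alone, with no measured value, and are named here by the running number in it (locus 57). The other 46350 loci were named genes. The tables came from SKOV3 cells, a human ovarian cancer line labelled cisplatin-sensitive, and SKOV3/DDP cells, labelled cisplatin-resistant, each untreated or exposed to paeonol (PAE), a plant phenol. The 4 groups were SKOV3, SKOV3_PAE, SKOV3/DDP and SKOV3/DDP_PAE, with 3 libraries each and between 14610008 and 18263479 counts per library. The labels state no dose, exposure time or vehicle for PAE. The count columns are named with 1.5P in SKOV3_PAE and 2.4P in SKOV3/DDP_PAE, with no unit or explanation, so the PAE exposure may differ between the lines, and each comparison of PAE effects or of PAE-treated lines would then compare 2 exposures as well. The labels do not say whether the libraries of a group came from separate cultures, so p-values measure the spread between these libraries, which may be technical. Each line is 1 cell line, so a difference between the lines is a difference between these cultures.

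An unnamed locus can arise when aligned reads assemble into a transcript where the gene annotation in use has no gene. Such loci can be exons missing from that annotation, RNAs transcribed away from a promoter in the direction opposite to its gene, RNAs that run past the end of a gene, or copies of transposable elements. Long interspersed elements (LINE-1) encode a reverse transcriptase in their second reading frame, ORF2. Endogenous retroviruses are remnants of germline infections, and among them the HERV-K group encodes the small protein Np9 while a HERV-H copy gave rise to ESRG, a gene expressed in pluripotent stem cells. The repeated nature of these elements means that reads from near-identical copies may be divided between loci. How the counting treated such reads is not given in the sources used here, so the value of any 1 repeat-derived locus is uncertain.

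The sequences below are shown because each places a locus that carried a main result against a known annotation. They are parts of GENCODE 29 exons on the same strand as the locus (GRCh38, written 5′ to 3′), since the full sequence of a locus was not read here. In ELOCP18, a processed pseudogene inside locus 57, capitals mark the 21 of 240 bases that differed from ELOC, the parent gene of an elongin subunit (91.2% identity, chr1:68375327-68375566, minus strand). In RPS27AP16, a pseudogene inside locus 591, capitals mark the 3 of 240 bases that differed from RPS27A, a ribosomal protein gene (98.8% identity, chr16:61055445-61055684, minus strand). The exon of LINC00393 inside locus 507 (chr13:73413473-73413636, minus strand) carries no mark.
locus 57, ELOCP18: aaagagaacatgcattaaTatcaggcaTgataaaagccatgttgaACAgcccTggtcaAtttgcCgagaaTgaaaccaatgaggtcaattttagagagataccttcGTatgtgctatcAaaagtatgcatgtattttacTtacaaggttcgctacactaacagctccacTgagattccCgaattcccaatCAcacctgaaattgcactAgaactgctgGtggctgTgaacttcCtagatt
locus 591, RPS27AP16: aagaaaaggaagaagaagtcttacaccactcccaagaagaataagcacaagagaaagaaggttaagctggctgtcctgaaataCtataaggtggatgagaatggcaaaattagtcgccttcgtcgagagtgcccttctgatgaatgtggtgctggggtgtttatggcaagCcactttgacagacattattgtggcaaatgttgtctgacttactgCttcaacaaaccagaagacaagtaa
locus 507, LINC00393: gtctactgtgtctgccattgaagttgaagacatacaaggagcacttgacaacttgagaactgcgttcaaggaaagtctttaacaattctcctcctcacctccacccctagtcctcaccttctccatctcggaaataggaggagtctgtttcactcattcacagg

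The epithelial keratin KRT8 was present at 359 to 5272 CPM (counts scaled to library depth by the trimmed mean of M values over all loci), and the leukocyte marker PTPRC stayed at or below 0.0945 CPM. Among the other markers of non-epithelial cells, PECAM1 reached 10.5 CPM in SKOV3_PAE and COL1A1 14.1 CPM in SKOV3. The rest stayed at or below 1.13 CPM. ERBB2 lay at 289 to 326 CPM in SKOV3, 46.4 to 87.0 CPM in SKOV3_PAE and 24.5 to 117 CPM in the SKOV3/DDP groups. The Müllerian marker PAX8 lay between 8.39 and 33.9 CPM in SKOV3 and SKOV3_PAE and between 1.25 and 5.43 CPM in the SKOV3/DDP groups, and WT1 did not exceed 0.164 CPM. The epithelial markers EPCAM, at 0.434 to 8.48 CPM against 169 to 305 CPM, and KRT19, at 3.71 to 9.26 CPM against 187 to 1507 CPM, were lower in the SKOV3 line than in the SKOV3/DDP line, as was FOLR1, at no more than 0.354 CPM against 16.7 to 40.2 CPM. CDH1 was lower in the SKOV3 line as well, at 3.38 to 74.0 CPM against 111 to 570 CPM. The untreated SKOV3 libraries stood apart from the other 9. They held a count for 17951 to 18240 named genes against 21469 to 23194 elsewhere, and their deviations from the mean of all libraries correlated with gene GC content at a Spearman rho of 0.751 to 0.779 across 10698 named genes, against -0.654 to -0.435 in the other libraries. The deviations of a gene balance over all libraries, so the negative values elsewhere are not independent of the positive trend in the 3 untreated SKOV3 libraries. Both the comparison of the untreated lines and that of PAE in SKOV3 use these 3 libraries. The GC content of the loci themselves was not read, and the part of this trend in the results was not tested.

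The unnamed loci were spread over all chromosomes but the mitochondrial one. Chromosome 1 held 78, chromosome 17 held 58, chromosome 2 held 54, chromosome 19 held 53 and chromosome 16 held 52, while 39 lay on unplaced or alternate scaffolds. Set against gene number, chromosome 20 led with 3.23 loci per 100 named genes, followed by chromosome 16 with 3.02, chromosome 17 with 2.64 and chromosome 19 with 2.41. Chromosome 6 had 0.857 per 100 and the scaffolds 9.01 per 100. The tables placed 459 loci on the plus and 410 on the minus strand.

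The loci were short. Their median exonic length was 960 bases, with a middle range of 442 to 1986 and extremes of 200 and 31473, against medians of 3967 for named protein-coding genes, 1468 for named lncRNA genes and 908 for named pseudogenes. In 300 loci (34.5%) the length equalled the genomic span, so that no intron was recorded. That share was 2.4% among named lncRNA genes and 73.5% among named pseudogenes. The kit did not mark strand, so the reads alone do not give the strand of the 300 loci, of which 182 were listed on plus and 118 on minus. The median genomic span was 2726 bases.

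None of the 848 loci with a named gene on the same sequence overlapped one. Since such loci can arise where the annotation has no gene, this may be fixed by how they were defined. The median gap to the nearest named gene was 3600.5 bases, 288 loci (34.0%) lay within 1 kb and 473 (55.8%) within 5 kb. Among named lncRNA genes, 52.3% overlapped another named gene. Loci close to a gene lay mostly at its 5′ side: 112 stood head to head with their neighbour within 1 kb and 97 stood upstream on the same strand, against 59 tail to tail and 20 downstream on the same strand. These orientations rest on the strand in the tables, and 23 of the 112, 81 of the 97, 21 of the 59 and 0 of the 20 had no intron to fix it.

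**Figure D1:**
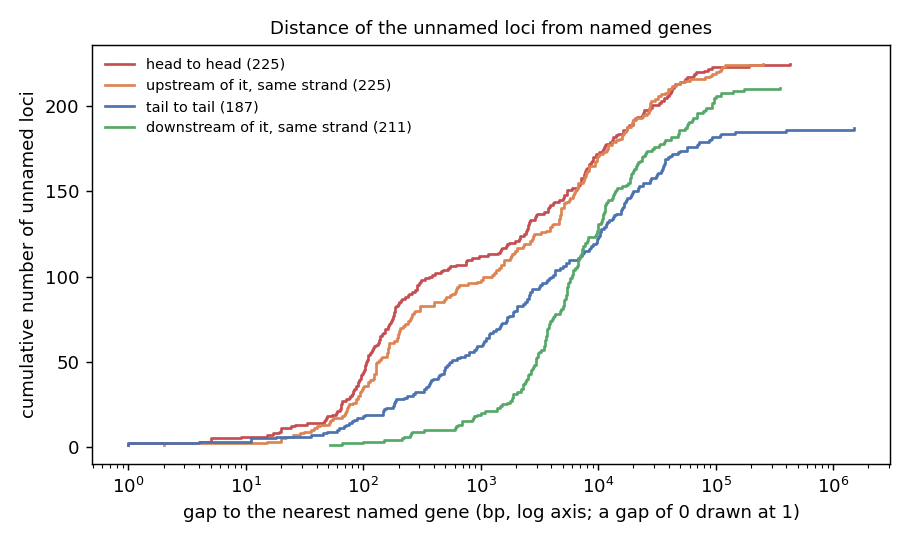
Cumulative number of unnamed loci (y axis) by the gap in bases to the nearest named gene (x axis, log scale), drawn for each orientation, with the number of loci in the key. The head-to-head and same-strand upstream curves rise earliest, with 112 and 97 loci within 1 kb, and the same-strand downstream curve rises last, with 20.

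The neighbours within 1 kb had GC-rich starts in every orientation. Of the 112 genes at head-to-head loci, 81 matched a promoter in RefSeq (GRCh38.p14, 250 bases before to 50 after the start), with a median GC content of 70.0%, a median of 34 CG pairs and the letters TATAAA on either strand in 4.94%. Over all 27305 promoters of that table the values were 58.3%, 14 and 12%. The median GC content was 68.2% at the neighbours of loci upstream on the same strand, 65% at those tail to tail and 65% at those downstream, so a GC-rich start was not particular to the head-to-head loci, and TATAAA stood in 6.67%, 4.55% and 20% of their promoters. The promoters of PLD2, which encodes a phospholipase D, and DHDDS, which encodes a subunit of an enzyme of dolichol synthesis, are shown since locus 641 and locus 53 begin inside them. Both are printed for the 250 bases before the gene start on the plus strand (chr17:4806902-4807151 and chr1:26432071-26432320, GRCh38.p14), and capitals mark the 155 and 70 bases that belong to the unnamed locus.
PLD2 promoter: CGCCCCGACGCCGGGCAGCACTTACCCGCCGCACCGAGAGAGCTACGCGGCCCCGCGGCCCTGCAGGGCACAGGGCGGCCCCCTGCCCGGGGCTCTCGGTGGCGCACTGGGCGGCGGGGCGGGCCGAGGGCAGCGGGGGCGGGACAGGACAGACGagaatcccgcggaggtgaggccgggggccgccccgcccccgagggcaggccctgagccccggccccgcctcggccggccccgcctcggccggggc
DHDDS promoter: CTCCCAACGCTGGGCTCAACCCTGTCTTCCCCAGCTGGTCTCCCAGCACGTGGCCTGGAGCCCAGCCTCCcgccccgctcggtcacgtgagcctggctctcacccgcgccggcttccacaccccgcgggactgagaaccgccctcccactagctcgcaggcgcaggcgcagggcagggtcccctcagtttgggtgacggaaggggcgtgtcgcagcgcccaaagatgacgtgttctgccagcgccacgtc

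Other annotations held genes at many of these loci. Of the 830 loci on chromosomes, 228 overlapped a GENCODE 29 exon on the same strand, 76 overlapped one on the opposite strand only and 526 overlapped none. Of these 228 loci, 76 fell on a lincRNA gene, 45 on a protein-coding gene and 26 on an antisense gene. In RefSeq GRCh38.p14, 252 loci overlapped the span of a gene, 159 of them of a lncRNA, and 214 loci lay in a gene whose identifier is absent from the count tables. The median gap to the nearest gene fell from 3478.5 bases with the genes of the tables to 152.5 bases with GENCODE 29, so the gaps above describe the annotation of the tables. For locus 17 (chr1:50967980-50968585, plus strand), all 606 bases lay in GENCODE exons of CDKN2C, a cyclin-dependent kinase inhibitor gene, although the tables placed it 120 bases upstream of that gene.

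The description column of the tables named a protein for 448 of the 869 loci and a Pfam domain for 40. How these matches were made is not given in the sources used here. Sorted after their values had been seen, 45 loci matched a retroviral protein, 40 matched LINE-1 and 256 matched one of the other descriptions shared by 5 or more loci, led by zinc finger protein ENSP00000375192 with 78 loci and C16orf89 with 53. A further 107 had a rarer match and 421 had none. The 45 retroviral loci held 48.9% of all counts on unnamed loci, the LINE-1 loci 9.89% and the 421 loci without a match 11.6%. Loci without a match were shorter, with a median length of 575 bases against 2076 for the retroviral and 2649 for the LINE-1 loci.

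Of the 869 loci, 846 had at least 1 count in some library, 242 had one in all 12 libraries, and 72 had at least 10 counts in all 12. Per length, the loci with a count had a median level of 0.585 CPM per kb, against 2.85 for protein-coding genes, 0.0398 for named lncRNA genes and 0.0430 for named pseudogenes that had a count. An unnamed locus may have entered the tables only where reads assembled, whereas named genes without reads are listed too. How the loci were made is not given in the sources used here, and 23 of the 869 had no count in any library. At least 1 CPM per kb was reached by 25.7% of the unnamed loci and 5.23% of the named lncRNA genes. The highest levels per length were those of locus 814 (199 CPM per kb), locus 57 (160), locus 591 (61.6), locus 26 (25.5), locus 548 (20.3) and locus 788 (20.01).

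The unnamed loci took a larger share of the counts in the 3 other groups than in untreated SKOV3. The share was 0.132%, 0.126% and 0.138% in SKOV3, 0.255%, 0.281% and 0.239% in SKOV3_PAE, 0.473%, 0.272% and 0.678% in SKOV3/DDP, and 0.333%, 0.395% and 0.250% in SKOV3/DDP_PAE. All 9 libraries of the other groups lay above the 3 of SKOV3, and the SKOV3/DDP and SKOV3/DDP_PAE libraries overlapped. The share of named lncRNA genes was lowest in untreated SKOV3 too, at 0.649% to 0.764% against 0.931% to 1.24% in the other 9 libraries. The low share was thus not particular to the unnamed loci. The mean was 0.132% ± 0.00628 (SD, n = 3) in SKOV3 and 0.474% ± 0.203 in SKOV3/DDP (exact permutation test, 2-sided, p = 0.1, the smallest that 3 against 3 libraries allow, adjusted p = 0.2 over 4 comparisons). It was 0.258% ± 0.0209 in SKOV3_PAE (exact permutation p = 0.1 against SKOV3, adjusted p = 0.2) and 0.326% ± 0.0726 in SKOV3/DDP_PAE (exact permutation p = 0.3 against SKOV3/DDP, p = 0.3 against SKOV3_PAE, adjusted p = 0.3 for both).

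A single locus, locus 57, made most of the difference between the untreated lines. It held 36.1% of all counts on unnamed loci, and 68.4%, 39.6% and 73.9% of those in the 3 SKOV3/DDP libraries. Without it the mean shares were 0.132%, 0.258%, 0.164% and 0.200% in SKOV3, SKOV3_PAE, SKOV3/DDP and SKOV3/DDP_PAE. The ratio of SKOV3/DDP to SKOV3 was then 1.24 in place of 3.60, the difference with PAE in SKOV3/DDP turned from -0.148 to 0.0363 percentage points, and that between the lines with PAE turned from 0.0676 to -0.0583. The difference with PAE in SKOV3 was 0.127 percentage points with locus 57 and 0.126 without it. The 10 loci with the most counts held 55.5% of the counts and the first 100 held 79.7%.

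**Figure D2:**
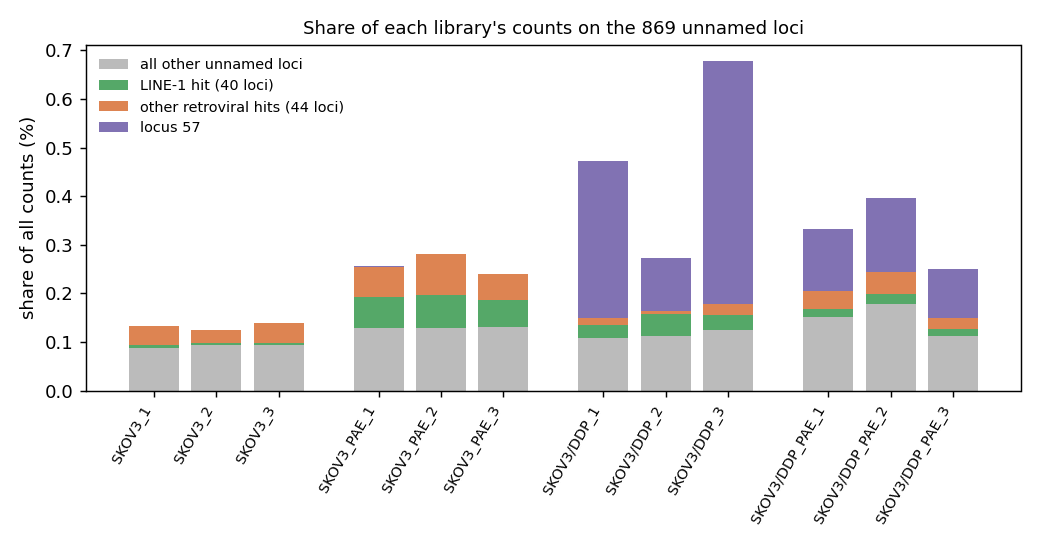
Share of each library's counts that fell on the 869 unnamed loci (y axis, percent), with 1 stacked bar per library split into locus 57, the other retroviral matches, the LINE-1 matches and all other loci. The locus 57 segment is tall in the 6 libraries of the SKOV3/DDP line only, and the 3 untreated SKOV3 bars are the lowest, at 0.126% to 0.138%.

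Fewer unnamed loci were detected in untreated SKOV3. At least 1 count was found for 502, 527 and 526 loci in SKOV3, 629, 630 and 614 in SKOV3_PAE, 589, 627 and 594 in SKOV3/DDP, and 639, 638 and 609 in SKOV3/DDP_PAE. The SKOV3 libraries did not overlap those of SKOV3_PAE or SKOV3/DDP. The mean difference was 106 loci for PAE in SKOV3 and 85 for SKOV3/DDP against SKOV3 (exact permutation p = 0.1 and adjusted p = 0.2 for each). For PAE in SKOV3/DDP it was 25.3 (exact permutation p = 0.2, adjusted p = 0.267), and for the lines with PAE 4.33 (exact permutation p = 0.6). The SKOV3 libraries were the deepest of the 12 by mean. Thinning every library to the smallest total gave differences of 112, 89.3, 22.9 and 0.217 loci. Among named lncRNA genes, untreated SKOV3 was likewise lowest, with 18.5% to 19.1% detected in SKOV3 and 28.7% to 33.4% in the other 9 libraries.

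Some loci were found in 1 line only. In all 6 SKOV3/DDP-line libraries, 16 loci had at least 10 counts and no count in any of the 6 SKOV3-line libraries, and 22 loci showed the opposite. The 16 included locus 317, which matched a HERV-K Pol protein, locus 344 with a LINE-1 match and locus 815 with an ESRG match. Among the 22 were 4 of the loci that matched the Np9 protein of HERV-K member 7, and locus 215 and locus 739 with a LINE-1 match. By the looser rule of 3 libraries against 3, 51 loci with no count in SKOV3 had at least 10 in every SKOV3/DDP library. The opposite held for 46 loci. By that same rule, 4 loci with no count in SKOV3 had at least 10 in every SKOV3_PAE library. For PAE, 0 showed the opposite in SKOV3 or either pattern in SKOV3/DDP. A locus with no count in 3 libraries could still hold up to 3 counts over them. Such cases were not counted among named genes, so these numbers have no background share beside them.

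For tests, named and unnamed loci were fitted together in edgeR (quasi-likelihood F-test), p-values were adjusted by the method of Benjamini and Hochberg over the 17656 loci that passed a filter on low counts, and a locus was called at an adjusted p under 0.05. Of the 869 unnamed loci, 523 were tested and 346 were not. A locus that passed only through its high group had to differ, so the counts below are descriptions set beside the share of all tested loci that were called. The same holds for the p-values of single loci with no count outside the groups where they are high, which were picked for the size of their change. In bulk RNA, fewer cells that transcribe a locus and less RNA per cell cannot be told apart.

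In untreated SKOV3/DDP against SKOV3, 386 of 523 loci (73.8%) were called, against 81.4% of all tested loci. Of these, 193 were higher and 193 lower in SKOV3/DDP, where all loci split into 45.1% higher and 36.3% lower. On the log2 scale, the median change was 0.01 for the unnamed loci and 0.49 for all loci, with loci at 0 set to their bound. A call with a log2 change above 2 in size was made for 65.8% of the unnamed and 57.3% of all tested loci.

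For PAE in SKOV3, 284 of 523 loci (54.3%) were called, 140 higher and 144 lower, against 74.6% of all tested loci, 42.1% higher and 32.5% lower. Scaled by library totals alone, 193 were higher and 77 lower. That scaling moved the median log2 change of all loci from 0.46 to 1.33 for PAE in SKOV3, from 0.49 to 1.21 between the untreated lines and from 0.01 to 0.16 for PAE in SKOV3/DDP, so directions in comparisons with untreated SKOV3 are relative to the bulk of loci.

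For PAE in SKOV3/DDP, 121 of 523 loci (23.1%) were called, 64 higher and 57 lower, against 26.6% of all tested loci, 12.6% higher and 14% lower. The number called was 69 without SKOV3/DDP replicate 1, 73 without SKOV3/DDP replicate 3, 65 without SKOV3/DDP_PAE replicate 1 and 79 without SKOV3/DDP_PAE replicate 2. With PAE in both lines, 333 of 523 (63.7%) were called, 172 higher and 161 lower in SKOV3/DDP_PAE, against 54.8% of all tested loci, 27.5% higher and 27.3% lower. This was the only comparison of 2 groups in which the unnamed loci were called more often than all tested loci. It does not use untreated SKOV3, and neither does PAE in SKOV3/DDP, where the unnamed loci were called less often. The PAE effect differed between the lines for 194 of 523 loci (37.1%), with 92 higher and 102 lower in SKOV3/DDP, against 62.1% of all tested loci, 25.6% higher and 36.5% lower. Scaled by library totals, that split was 65 and 141. Among named lncRNA genes, 72.3% were called between the untreated lines, 52.4% with PAE in SKOV3 and 19.99% with PAE in SKOV3/DDP. The difference of the PAE effect was called for 37.3% of them. Where the unnamed loci were called less often than all tested loci, named lncRNA genes were too. The lower rate was thus not particular to the unnamed loci. Between the lines with PAE, 53.8% of named lncRNA genes were called, so they did not share the higher rate there.

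**Figure D3:**
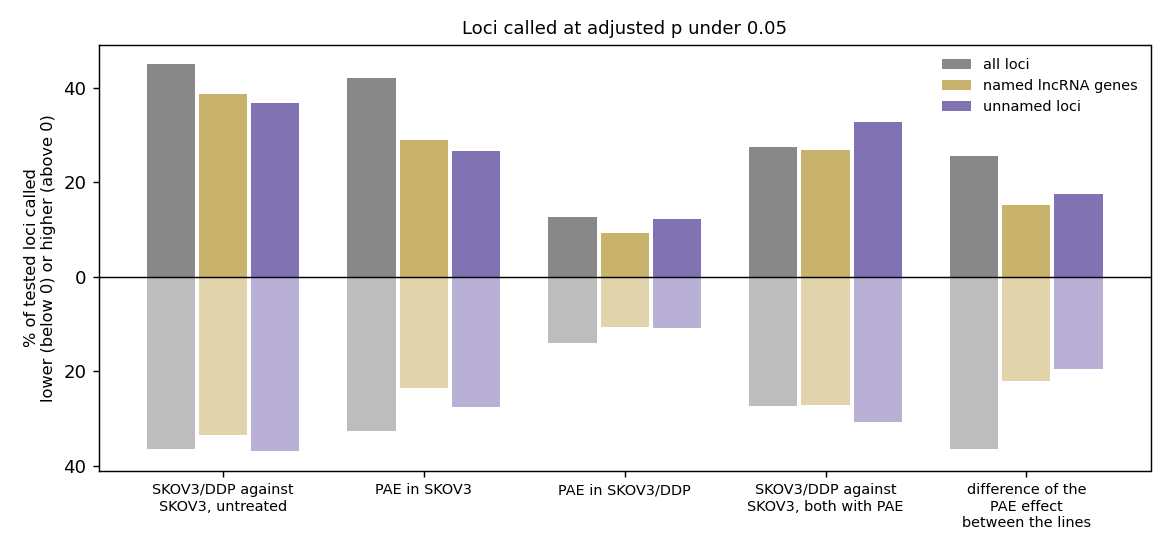
Percent of tested loci called at an adjusted p under 0.05 (y axis, higher above 0 and lower below 0) in each comparison, for all loci, named lncRNA genes and unnamed loci. The unnamed loci lie below all loci in total between the untreated lines (73.8% against 81.4%) and with PAE in SKOV3 (54.3% against 74.6%). They also lie below with PAE in SKOV3/DDP (23.1% against 26.6%) and for the difference of the PAE effect (37.1% against 62.1%). They lie above all loci between the PAE-treated lines, at 63.7% against 54.8%. Named lncRNA genes lie below all loci in every comparison, at 72.3%, 52.4%, 19.99%, 37.3% and 53.8% in the order given here.

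The most abundant unnamed locus, locus 57, was high in SKOV3/DDP cells. It spans chr1:68347294-68392069 on the minus strand with 6078 exonic bases, matches ESRG, and carries the Pfam domains of a retroviral Gag core protein and a zinc knuckle. Its level was 0.266, 0.0867 and 0.254 CPM in SKOV3, 1.98, 4.23 and 1.64 in SKOV3_PAE, 2909, 1083 and 4490 in SKOV3/DDP, and 1069, 1244 and 873 in SKOV3/DDP_PAE. Those SKOV3 levels rest on 3, 1 and 3 counts, and no SKOV3-line library reached the level of any SKOV3/DDP-line library. The log2 change in SKOV3/DDP against SKOV3 was 13.72 (SE 0.74, adjusted p = 8.31e-10), and that with PAE in SKOV3 was 3.65 (SE 0.71, adjusted p = 0.000243). With PAE in SKOV3/DDP it was -1.41 (SE 0.41, adjusted p = 0.0206) with overlapping groups, and the adjusted p rose to 0.125 without SKOV3/DDP replicate 3 (log2 change -0.92), 0.0628 without SKOV3/DDP_PAE replicate 1 and 0.0697 without SKOV3/DDP_PAE replicate 3. The PAE effect differed between the lines (difference -5.06, SE 0.82, adjusted p = 6.71e-05).

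The nearest named gene of locus 57, RPE65, lies 36752 bases away on the same strand, and locus 57 is downstream of it. RPE65 encodes the retinoid isomerase of the retinal pigment epithelium. Its log2 change was 11.94 in SKOV3/DDP against SKOV3 (adjusted p = 4.11e-08) and -1.91 with PAE in SKOV3/DDP (adjusted p = 0.00496), and with PAE in SKOV3 it was 3.94 (adjusted p = 0.0575).

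The second ESRG match among the abundant loci, locus 814 (chrX:4540446-4546325, minus strand, 483 exonic bases), had the opposite pattern. Its level was 161, 83.6 and 160 CPM in SKOV3, 236, 293 and 190 in SKOV3_PAE, 7.44, 2.46 and 11.5 in SKOV3/DDP, and 3.10, 3.54 and 1.36 in SKOV3/DDP_PAE. Every SKOV3-line library lay above every SKOV3/DDP-line library, by a log2 change of -4.24 between the untreated lines (SE 0.48, adjusted p = 9.04e-07) and -6.48 with PAE (SE 0.54, adjusted p = 1.19e-07). The nearest named gene was the lncRNA LOC101928201, 80874 bases away.

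**Figure D4:**
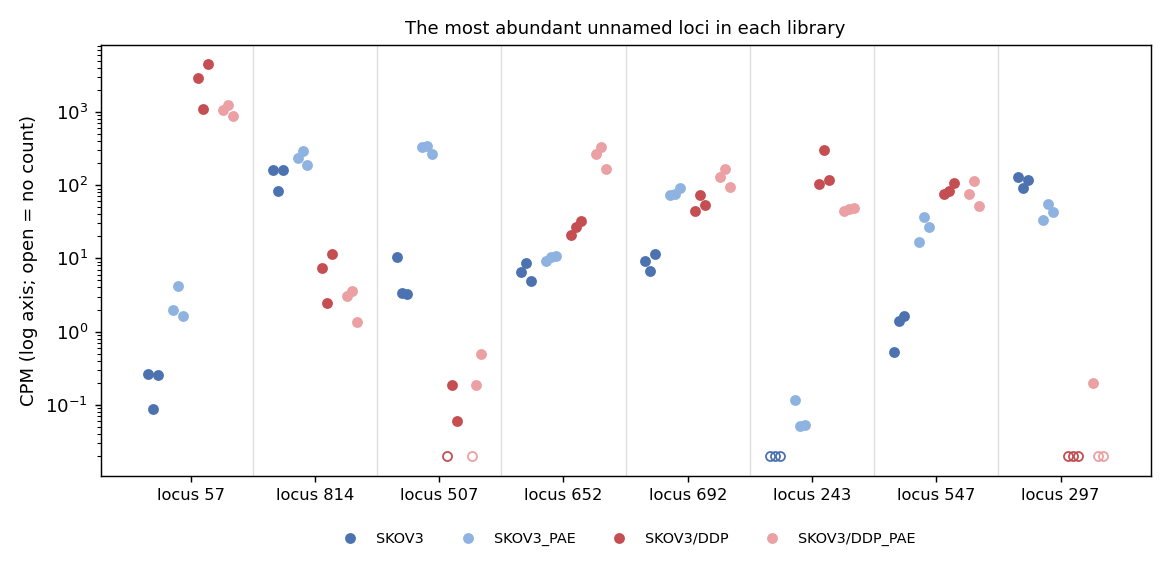
Level of the 8 most abundant unnamed loci in each of the 12 libraries (y axis, CPM on a log scale, open symbols for libraries with no count), with 3 points per group. Locus 57 and locus 243 are high in the SKOV3/DDP line, locus 814, locus 507 and locus 297 are high in the SKOV3 line, and locus 652 is highest in SKOV3/DDP_PAE at 164 to 331 CPM.

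A further 3 of the abundant loci matched LINE-1 or HERV-K and were nearly confined to 1 line in these libraries. The LINE-1 match locus 507 (chr13:73412231-73494681, minus strand, 12606 exonic bases) had 117, 39 and 39 counts in SKOV3 and 5711, 6826 and 5090 in SKOV3_PAE, against 0, 3 and 1 in SKOV3/DDP and 0, 4 and 9 in SKOV3/DDP_PAE. With PAE in SKOV3 it rose by a log2 change of 5.80 (SE 0.54, adjusted p = 1.23e-07), or 6.58 without SKOV3 replicate 1. Another LINE-1 match, locus 243 (chr6:66259025-66279791, plus strand, 13081 exonic bases), had no count in SKOV3 and 2, 1 and 1 in SKOV3_PAE, against 1801, 4971 and 1955 in SKOV3/DDP and 893, 1004 and 901 in SKOV3/DDP_PAE. It was at least 1991-fold higher in SKOV3/DDP than in SKOV3 (bound at 3 counts over the 3 libraries, adjusted p = 3.52e-09), and fell with PAE in SKOV3/DDP by 1.90 on the log2 scale (SE 0.35, adjusted p = 0.00223), or by 1.26 without SKOV3/DDP replicate 2.

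The third, locus 297 (chr7:100522199-100524703, minus strand, 2226 exonic bases), matched the Np9 protein of HERV-K member 7. It had 1438, 1070 and 1401 counts in SKOV3, 579, 1068 and 821 in SKOV3_PAE, no count in SKOV3/DDP, and 4, 0 and 0 in SKOV3/DDP_PAE. The level in SKOV3 was at least 1904-fold higher than in SKOV3/DDP (adjusted p = 2.15e-09).

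The 16 loci that matched this Np9 protein, a group formed after their values were seen, were high in the SKOV3 line as a set. Their summed level was 275, 217 and 261 CPM in SKOV3, 76.3, 106 and 80.7 in SKOV3_PAE, 2.05, 2.34 and 2.21 in SKOV3/DDP, and 2.81, 2.03 and 1.96 in SKOV3/DDP_PAE. Without locus 297, the sum was 124 to 147 CPM in SKOV3 and 1.96 to 2.61 CPM in the SKOV3/DDP line, so the order did not rest on that locus. Of 13 tested, 13 were lower in SKOV3/DDP than in SKOV3 and 12 were lower in SKOV3/DDP_PAE than in SKOV3_PAE, with 0 higher in either, where 36.3% and 27.3% of all tested loci were lower. The first count was the same under DESeq2, limma-voom and scaling by library totals, which use the same libraries. In a fit of the 6 libraries of the SKOV3/DDP line alone, only 2 of these loci passed the filter on low counts. The others passed it through the SKOV3 line, so their direction was largely fixed in advance. These counts are descriptions, and the loci are not replicates. Without the filter on low counts, 15 were tested, of which 14 were lower and 1 higher.

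With PAE in SKOV3, 10 of these 13 Np9 loci were called lower and 0 higher, and scaled by library totals 6 were lower and 0 higher. Of all tested loci, 32.5% were called lower and 42.1% higher in that comparison by the main fit. For locus 297 the log2 change with PAE was -1.36 (SE 0.33, adjusted p = 0.00182), and by library totals -0.48 (adjusted p = 0.199). The other 2 with the most counts were locus 375 (chr9:87751940-87759966) and locus 257 (chr6:148178118-148179995). Locus 375 fell from 47.9, 42.9 and 49.5 CPM in SKOV3 to 17, 20.4 and 15.0 CPM in SKOV3_PAE (log2 change -1.42, SE 0.27, adjusted p = 0.000265, and 0.1 by library totals). With PAE in SKOV3/DDP, 0 of the 13 were called by edgeR, DESeq2 or limma-voom, where their summed level did not exceed 2.81 CPM in any library. Of all tested loci, edgeR called 26.6% there.

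The 18 ESRG matches did not move as 1 set. Apart from locus 57, their summed level was 197, 117 and 203 CPM in SKOV3, 324, 418 and 273 in SKOV3_PAE, 82.5, 25.2 and 113 in SKOV3/DDP, and 33.7, 35.1 and 23.9 in SKOV3/DDP_PAE, with locus 814 giving most of it in the SKOV3 line and at most 11.5 CPM in the SKOV3/DDP line. Of 15 tested, 7 were higher and 4 lower in SKOV3/DDP than in SKOV3, beside 45.1% and 36.3% of all tested loci. With PAE, 7 were higher and 0 lower in SKOV3, and 0 were higher and 5 lower in SKOV3/DDP, where all tested loci split into 42.1% higher and 32.5% lower, and 12.6% and 14%. The 5 fell to 2 without SKOV3/DDP replicate 3 or SKOV3/DDP_PAE replicate 1, to 3 without SKOV3/DDP replicate 1, and to 2 with 1 higher without SKOV3/DDP_PAE replicate 3. By library totals, 1 was higher and 4 lower. One of the 18, locus 502 (chr13:90839907-90870822, plus strand, 3675 exonic bases), had 4, 8 and 7 counts in SKOV3, 160, 261 and 218 in SKOV3_PAE, 39, 28 and 55 in SKOV3/DDP, and 2, 2 and 2 in SKOV3/DDP_PAE. It rose with PAE in SKOV3 by a log2 change of 4.36 (SE 0.41, adjusted p = 1.53e-07) and fell with PAE in SKOV3/DDP by 4.49 on the log2 scale (SE 0.48, adjusted p = 5.08e-05), and the difference between these effects was -8.85 (SE 0.63, adjusted p = 1.25e-07).

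Among the 40 LINE-1 matches, more of those called were higher than lower with PAE in SKOV3. Their summed level was 86.0, 62.7 and 67.5 CPM in SKOV3, 543, 563 and 458 in SKOV3_PAE, 244, 446 and 286 in SKOV3/DDP, and 147, 176 and 135 in SKOV3/DDP_PAE. Of 34 tested, 20 were higher and 3 lower with PAE in SKOV3, 0 higher and 6 lower with PAE in SKOV3/DDP, and 21 higher and 8 lower in SKOV3/DDP than in SKOV3. Of all tested loci, 42.1% were higher and 32.5% lower with PAE in SKOV3, 12.6% and 14% with PAE in SKOV3/DDP, and 45.1% and 36.3% between the untreated lines. By library totals, the LINE-1 counts were 25 and 0, 2 and 5, and 23 and 8. The difference of the PAE effect between the lines was called for 21 (61.8%), beside 62.1% of all tested loci. Of the 34, 20 were lower in SKOV3/DDP and 1 higher, beside 36.5% and 25.6% of all tested loci. Between the lines with PAE, 11 were higher and 12 lower, beside 27.5% and 27.3% of all tested loci.

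Most of the LINE-1 sum came from 3 loci. Without locus 507, locus 243 and locus 215, the remaining sum was 70.2, 58.1 and 60.4 CPM in SKOV3, 116, 85.4 and 106 in SKOV3_PAE, 142, 140 and 170 in SKOV3/DDP, and 103, 128 and 85.0 in SKOV3/DDP_PAE. The SKOV3 libraries were still the lowest. The third locus, locus 215 (chr5:148256243-148267267, plus strand, 8636 exonic bases), had 61, 14 and 45 counts in SKOV3, 1612, 2543 and 1559 in SKOV3_PAE and none in the 6 SKOV3/DDP-line libraries. It rose with PAE in SKOV3 by a log2 change of 4.87 (SE 0.46, adjusted p = 1.41e-06). Its neighbour 1039 bases away tail to tail, the lncRNA LOC102546294, changed by 6.03 (adjusted p = 1.78e-05). A LINE-1 match with the reverse order, locus 262 (chr7:27044162-27046569), had 408, 359 and 373 counts in SKOV3, 207, 256 and 218 in SKOV3_PAE, none in SKOV3/DDP, and 0, 0 and 1 in SKOV3/DDP_PAE. It was at least 555-fold lower in SKOV3/DDP than in SKOV3 (adjusted p = 1.55e-09).

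**Figure D5:**
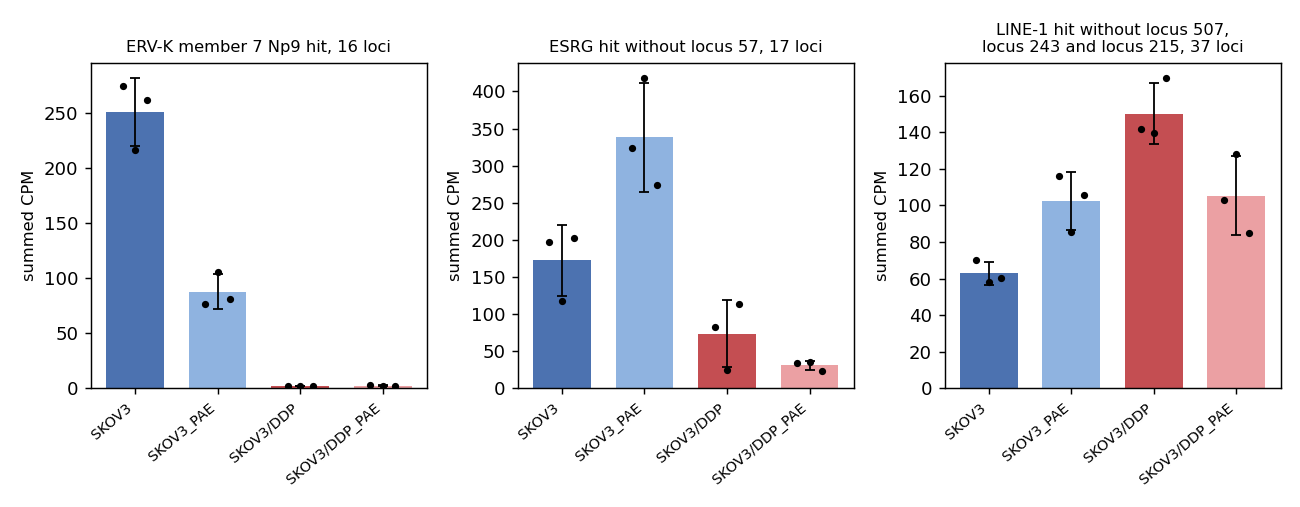
Summed level in CPM (y axis) of the loci matching the HERV-K member 7 Np9 protein, of the ESRG matches without locus 57, and of the LINE-1 matches without locus 507, locus 243 and locus 215. Bars are means of 3 libraries, error bars are SD and points are libraries. The Np9 sum is 217 to 275 CPM in SKOV3 and under 3 CPM in the SKOV3/DDP line, and the LINE-1 remainder is lowest in SKOV3 at 58.1 to 70.2 CPM.

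The clearest rise with PAE in SKOV3/DDP among abundant loci was that of locus 652 (chr17:43322178-43361689, minus strand), the longest unnamed locus at 31473 exonic bases. It matches a HERV-K Pol protein and carries domains of retroviral envelope, integrase, dUTPase and RNase H. It had 74, 99 and 58 counts in SKOV3, 156, 203 and 204 in SKOV3_PAE, 365, 436 and 541 in SKOV3/DDP, and 5452, 7012 and 3004 in SKOV3/DDP_PAE. None of the 4 groups overlapped. The log2 change was 3.26 with PAE in SKOV3/DDP (SE 0.29, adjusted p = 2.42e-05), 1.99 in SKOV3/DDP against SKOV3 (SE 0.29, adjusted p = 1.19e-05) and 0.59 with PAE in SKOV3 (SE 0.29, adjusted p = 0.0716). The difference of the PAE effects was 2.66 (SE 0.40, adjusted p = 3.16e-05).

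Both remaining abundant loci were lowest in untreated SKOV3. Locus 692 (chr19:57297575-57308547, plus strand) lies 3505 bases downstream of the zinc finger gene ZNF460, overlaps the GENCODE lincRNA AC005261.1, and had 9.30, 6.68 and 11.3 CPM in SKOV3, 73.7, 75.1 and 92.1 in SKOV3_PAE, 43.8, 72.7 and 54.1 in SKOV3/DDP, and 128, 166 and 93.8 in SKOV3/DDP_PAE. It rose with PAE in both lines, by log2 changes of 3.14 in SKOV3 (SE 0.29, adjusted p = 1.1e-07) and 1.18 in SKOV3/DDP (SE 0.26, adjusted p = 0.00496). Locus 547 (chr15:50360429-50371343, minus strand) had 0.532, 1.39 and 1.61 CPM in SKOV3 and 16.7, 37.1 and 26.7 in SKOV3_PAE, a log2 change of 4.5 (SE 0.43, adjusted p = 1.83e-07). In SKOV3/DDP it had 74.6, 83.0 and 108 CPM, and 75.7, 115 and 51.9 with PAE, with overlapping groups (log2 change -0.13, SE 0.34, adjusted p = 0.829).

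In contrast to these, locus 591 (matched to RPS27AP16 above and named after its values were seen) differed in none of the 4 comparisons of 2 groups by edgeR. It had 34.6, 29.2 and 52.9 CPM in SKOV3, 38.6, 20.2 and 40.2 in SKOV3_PAE, 27.8, 31.8 and 24.2 in SKOV3/DDP, and 34.3, 32.5 and 32.7 in SKOV3/DDP_PAE. Its log2 changes lay between -0.48 (SE 0.28, adjusted p = 0.119) and 0.25 (SE 0.27, adjusted p = 0.542). Given that its exon differed from RPS27A at 3 of 240 bases, its reads may be shared with that abundant gene.

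The summed level of the head-to-head loci beside genes was lower in the 3 other groups than in untreated SKOV3. The 112 head-to-head loci within 1 kb of a gene, grouped after their values were seen, had a summed level of 291, 380 and 311 CPM in SKOV3, 123, 129 and 112 in SKOV3_PAE, 106, 109 and 117 in SKOV3/DDP, and 119, 122 and 95.7 in SKOV3/DDP_PAE. Of 77 tested, 12 were higher and 43 lower in SKOV3/DDP than in SKOV3, and 10 were higher and 40 lower with PAE in SKOV3. All tested loci split into 45.1% higher and 36.3% lower, and 42.1% and 32.5%, and fewer of the 77 were called in all than the 81.4% and 74.6% of all tested loci. By library totals the counts were 16 and 33, and 14 and 25. With PAE in SKOV3/DDP, 10 of the 77 were higher and 5 lower, beside 12.6% and 14% of all tested loci. Between the lines with PAE, 16 of the 77 were higher and 22 lower, beside 27.5% and 27.3% of all tested loci. The named genes opposite them did not share this split: of 74 tested, 34 were higher and 24 lower in SKOV3/DDP than in SKOV3, and 32 were higher and 26 lower with PAE in SKOV3. Untreated SKOV3 was also the group whose libraries carried the GC trend given above, beside a median GC content of 70.0% at these promoters, and its part in this result was not tested.

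Among these, locus 641 (chr17:4801076-4807056, minus strand) starts 95 bases from PLD2 and overlaps exons of the GENCODE gene AC233723.1. It had 7.53, 11.6 and 10.2 CPM in SKOV3, 0.175, 0.612 and 0.212 in SKOV3_PAE, 0.682, 0.554 and 0.477 in SKOV3/DDP, and 1.38, 0.425 and 0.491 in SKOV3/DDP_PAE. It fell with PAE in SKOV3 by 4.83 on the log2 scale (SE 0.56, adjusted p = 1.37e-06), or by 5.59 without SKOV3_PAE replicate 2. PLD2 itself fell by 1.84 (adjusted p = 1.69e-06) in the same comparison. Locus 53 (chr1:26430757-26432140, minus strand), 180 bases from DHDDS, had 2.48, 4.51 and 3.05 CPM in SKOV3 and 0.0582, 0.306 and 0.0530 in SKOV3_PAE, and fell by 4.49 (SE 0.64, adjusted p = 1.09e-05), or by 5.72 without SKOV3_PAE replicate 2. DHDDS fell by 1.26 (adjusted p = 0.000162). Locus 532, 5160 bases from LINC00638 (head to head), went from 40, 80 and 53 counts in SKOV3 to 1, 9 and 1 in SKOV3_PAE and fell by 4.63 (SE 0.82, adjusted p = 0.000105), or by 6.29 without SKOV3_PAE replicate 2.

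Upstream of genes on the same strand, 97 loci lay within 1 kb, and their summed level was 195 to 214 CPM in SKOV3 and 76.7 to 111 CPM in the other 9 libraries. These sums rest on the trimmed-mean scaling and were not compared by library totals, so the gap between the groups may depend on that scaling. The calls were more even. Of 54 tested, 16 were higher and 20 lower between the untreated lines, beside 45.1% and 36.3% of all tested loci. With PAE in SKOV3, 9 of the 54 were higher and 18 lower, beside 42.1% and 32.5% of all tested loci. By library totals the balance of the 54 turned to 21 and 18, and to 18 and 11. One of them, locus 810 (chrX:119756765-119758420, plus strand), lies 167 bases before SOWAHD, an ankyrin repeat gene. It had 6, 11 and 8 counts in SKOV3, 14, 10 and 6 in SKOV3_PAE, 4, 8 and 7 in SKOV3/DDP, and 117, 66 and 74 in SKOV3/DDP_PAE. It rose with PAE in SKOV3/DDP by a log2 change of 3.49 (SE 0.50, adjusted p = 0.000319), while SOWAHD changed by 1.01 (adjusted p = 0.0983).

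The changes of unnamed loci and of their nearest named genes were correlated. The correlations are descriptions across pairs that share libraries, pairs are not replicates, and differences between orientations were not tested. Over 257 pairs within 5 kb in which both members were tested, Spearman's rho between the log2 changes of locus and neighbour was 0.425 for the untreated lines, 0.564 for the lines with PAE, 0.283 for PAE in SKOV3 and 0.248 for PAE in SKOV3/DDP. Over 101 pairs farther apart it was higher in each, at 0.607, 0.588, 0.407 and 0.355. Those 101 pairs were not split by orientation, so the part of distance was not tested. Between the untreated lines it was 0.745 for 62 tail-to-tail pairs, 0.656 for 43 loci downstream on the same strand, 0.311 for 65 loci upstream on the same strand and 0.198 for 87 head-to-head pairs. For named lncRNA genes and their neighbours it was 0.786, 0.512, 0.261 and 0.449 in the same order, over 29, 68, 29 and 298 pairs. With PAE in both lines, the head-to-head value was 0.557. When both members were called between the untreated lines, they went the same way in 40 of 46 tail-to-tail pairs and 25 of 48 head-to-head pairs. The library kit did not mark strand per the labels, so reads from a locus and from RNA of the opposite strand cannot be told apart where they overlap.

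The largest changes among unnamed loci were mostly switches between none and many counts. In SKOV3/DDP against SKOV3, locus 317 (chr8:126005021-126013908, plus strand, HERV-K Pol match) had no count in the 6 SKOV3-line libraries, 264, 90 and 466 counts in SKOV3/DDP, and 11, 46 and 12 in SKOV3/DDP_PAE. Locus 750 (chr20:4461766-4470362, minus strand) had no count in SKOV3, 1, 0 and 0 in SKOV3_PAE, 345, 122 and 301 in SKOV3/DDP and 22, 24 and 24 in SKOV3/DDP_PAE. Both were at least 175-fold higher in SKOV3/DDP than in SKOV3 (adjusted p = 1.06e-05 and 1.08e-07). Both fell with PAE in SKOV3/DDP, locus 317 by 3.82 on the log2 scale (SE 0.69, adjusted p = 0.00273), or by 3.19 without SKOV3/DDP replicate 3 and by 4.73 without SKOV3/DDP_PAE replicate 2, and locus 750 by 3.67 (SE 0.47, adjusted p = 0.00025).

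With PAE in SKOV3, the largest rises started from no count. Locus 316, with a LINE-1 match, had none in SKOV3 and 8, 104 and 13 counts in SKOV3_PAE and was at least 25.9-fold higher (adjusted p = 0.000725). SKOV3_PAE replicate 2 carried most of these counts, and the fitted log2 change, which is no bound where a group has no count, was 8.18 with it and 6.28 without it. Locus 769 had 25, 41 and 46 counts in SKOV3_PAE and none in any other group (at least 23.2-fold). Locus 776 had none in SKOV3 and between 7 and 25 counts in every other library (at least 13.7-fold with PAE in SKOV3, adjusted p = 5.92e-05). Locus 467 had none in SKOV3, 36, 17 and 16 counts in SKOV3_PAE, 1, 21 and 0 in SKOV3/DDP, and 21, 25 and 6 in SKOV3/DDP_PAE.

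Of the 4 loci picked for the largest falls with PAE in SKOV3/DDP, 3 had not been detected in the SKOV3 line, and the other was locus 502. Locus 95 (chr2:147378634-147388068, plus strand) had 246, 58 and 243 counts in SKOV3/DDP and 6, 8 and 2 in SKOV3/DDP_PAE, and fell by 5.30 on the log2 scale (SE 0.68, adjusted p = 0.00044). Locus 126 went from 38, 39 and 88 counts to 3, 1 and 1, and fell by 5.17 (SE 0.72, adjusted p = 0.000656), or by 5.81 without SKOV3/DDP_PAE replicate 1. Locus 190 went from 33, 18 and 47 to 1, 0 and 2, and fell by 5.06 (SE 0.84, adjusted p = 0.00178), or by 5.94 without SKOV3/DDP_PAE replicate 3. For locus 190 the ratio of counts was 38.6 (95% counting interval 12.8 to 191, which covers counting error only). These 3 had no count in the 6 SKOV3-line libraries and their nearest named genes lay 427739, 57975 and 30726 bases away.

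Among the rises with PAE in SKOV3/DDP, locus 113 (chr2:89609493-89613414, minus strand, inside the IGK locus of RefSeq) had 254, 231 and 190 counts in SKOV3/DDP_PAE against 0, 21 and 0 in SKOV3/DDP, and a single count in the SKOV3 line. SKOV3/DDP replicate 2 alone held the counts of untreated SKOV3/DDP. The log2 change was 4.71 (SE 0.94, adjusted p = 0.00345) with it and fitted at 10.56 without it, where no count remains in that group, and DESeq2 gave an adjusted p of 0.160. Locus 821, with a match to Syncytin-1, the placental envelope protein of a HERV-W copy, went from 0, 1 and 4 to 44, 46 and 14 counts (log2 change 4.01, SE 0.81, adjusted p = 0.0036), or a change of 5.52 without SKOV3/DDP replicate 3.

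Between the lines with PAE, 3 loci with no count in the SKOV3 line rose from that floor. Locus 344, locus 686 and locus 752 had between 73 and 170, 78 and 123, and 56 and 127 counts in SKOV3/DDP_PAE, and were at least 104-fold, 91.5-fold and 88.1-fold higher (adjusted p = 2.89e-06, 1.82e-06 and 4.27e-06). On the other side, locus 673, locus 64 and locus 223 had no count in SKOV3/DDP_PAE. Locus 64 (chr1:150780626-150784878, minus strand) had 325, 206 and 316 counts in SKOV3, 258, 272 and 291 in SKOV3_PAE, and 3, 0 and 0 in SKOV3/DDP. It lies 11329 bases downstream of CTSK, the cathepsin K gene, which was higher in SKOV3/DDP than in SKOV3 by a log2 change of 5.52 (adjusted p = 2.32e-08) although locus 64 was lower.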

How the data were processed

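RNA of the 12 libraries was selected with poly-T beads and made into libraries with a kit that does not mark strand, per the labels. The submitters' processing notes name HISAT2 2.0.5, StringTie 1.3.3b, DESeq2 and edgeR, with no role for each, and the treatment of reads with several alignments is not given in the sources used here. The deposited values are unnormalised read counts per locus, made by the authors, with GRCh38 coordinates and columns of protein and domain matches. Samples were grouped by the labels. From these counts, edgeR 4.0.16 quasi-likelihood tests after filterByExpr and TMM scaling (1 fit over 12 libraries and 4 groups, R 4.3.3) and 2-sided exact permutation tests of shares and of detection were computed, and the code was tested on simulated data. DESeq2 1.42.0, limma-voom 3.58.1 and other scalings, filters and libraries served as alternatives.

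Named loci were the 8 with the highest CPM, the 4 of each sign with the largest called change in each comparison of 2 groups (no overlap, and a group mean reaching 1 CPM), 3 of each sign for the difference of the PAE effect, up to 5 with no count in 1 group and at least 10 in every library of another, and their nearest named genes. Loci 26, 548, 591, 739, 788 and 815 were named after their values were seen. The members, lists and groups were chosen with earlier results of these data known. Precision was limited by counts: intervals and bounds cover counting error only. No pair of libraries of a group agreed within sampling noise, so none was merged.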

Additional observations from a re-analysis of the deposited data

Results flagged for a closer look

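The effect of PAE differed between the SKOV3 and SKOV3/DDP lines for 24 of the named loci, by edgeR's test of the difference itself (adjusted p under 0.05). The values below are the log2 change with PAE in SKOV3/DDP minus that in SKOV3, so a negative value means that PAE moved the locus less upward or more downward in SKOV3/DDP. Groups of 3 libraries were not tested for single libraries that stand apart. Since 37.1% of the tested unnamed loci and 62.1% of all tested loci had such a difference, and the SKOV3 side of each value rests on the untreated SKOV3 libraries that stood apart, the part of those libraries in the values was not tested. The numbers in the count columns of the PAE groups differ between the lines, so cell line and PAE exposure cannot be told apart in these differences.

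Among the 8 most abundant loci, the difference was -5.06 for locus 57, -2.24 for locus 814, -4.42 for locus 507, 2.66 for locus 652, -1.95 for locus 692, -5.31 for locus 243, -4.63 for locus 547 and 4.68 for locus 297. Locus 502, the ESRG match that rose with PAE in SKOV3 and fell with PAE in SKOV3/DDP, had the most negative of the 24 values at -8.85. Both of its effects were called, with log2 changes of 4.36 and -4.49.

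Of the loci with no more than 3 counts in each SKOV3 library, the difference was -6.97 for locus 316, -6.48 for locus 467, -7.26 for locus 776, -8.16 for locus 749 and -7.39 for locus 468. Locus 673 had -4.55, where PAE changed it by 0.47 in SKOV3 and by -4.08 in SKOV3/DDP. Of the loci that fell with PAE in SKOV3, it was 4.82 for locus 257, 5.25 for locus 641, 5.59 for locus 532, 5.10 for locus 53 and 6.01 for locus 323. It was 3.89 for locus 810, 7.87 for locus 798, 7.13 for locus 17 and 6.35 for locus 765.

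For 17 of the 24 loci the call held when each library was left out in turn. For locus 749, it was lost without SKOV3/DDP replicate 2 (-4.34, adjusted p = 1), for locus 257 without SKOV3/DDP_PAE replicate 2 (2.37, adjusted p = 1), and for locus 297 without any 1 of the SKOV3/DDP libraries (adjusted p of at least 0.0547) or SKOV3/DDP_PAE replicate 1 (1.35, adjusted p = 1). The calls of loci 507, 243, 467 and 323 were lost without any 1 of several libraries, with adjusted p reaching 0.419 (locus 507, without SKOV3/DDP replicate 2), 0.112 (locus 243, without SKOV3_PAE replicate 1), 0.314 (locus 467, without SKOV3/DDP replicate 2) and 1 (locus 323, without SKOV3/DDP_PAE replicate 1). Loci 243, 297, 257, 316, 467, 776, 323, 673, 798, 17, 749 and 468 had no count in at least 1 group, so that the sizes fitted for them depend on the fit and are no bounds.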

How the results depend on the processing

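Of 1717 values of the named loci under alternatives, 1629 kept their direction and their call, 88 kept the direction and lost the call, and 0 turned. These values cover only the 129 pairs of locus and comparison called in the main fit. Most of the loci were picked for large called changes, so agreement was partly built in. A locus that a setting filtered out was not counted as lost, and only 13 pairs remained at 10 counts in every library. Of the 88, 70 came from leaving out 1 library and 9 from scaling by library totals. The number of unnamed loci called in SKOV3/DDP against SKOV3, with PAE in SKOV3, with PAE in SKOV3/DDP, between the lines with PAE and for the difference of the PAE effect was 386, 284, 121, 333 and 194. Requiring at least 10 counts in every library left 72 loci, of which 43, 46, 24, 38 and 39 were called, since fewer loci were tested. With DESeq2 the numbers were 385, 300, 126, 334 and 194, with limma-voom 397, 296, 147, 340 and 242, with library totals 403, 270, 124, 331 and 206, and without a filter 485, 340, 147, 413 and 229. Leaving out each library gave 381 to 392, 255 to 275, 65 to 121, 302 to 342 and 170 to 192. Without the untreated SKOV3 libraries, an alternative chosen after seeing the data, 112 were called with PAE in SKOV3/DDP and 305 between the lines with PAE.

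The differences in share between groups were 0.240 to 0.443, 0.115 to 0.136, -0.249 to -0.0463 and 0.0330 to 0.105 percentage points for the 4 comparisons of 2 groups in the same order, on leaving out each library. Without locus 57, the difference with PAE in SKOV3/DDP turned to 0.0363 and that between the lines with PAE to -0.0583. The difference in loci detected was 73.2 to 92.2, 97.8 to 111, 18.2 to 37.2 and -0.833 to 14.2 on leaving out each library. The last turned without SKOV3_PAE replicate 3 or without SKOV3/DDP_PAE replicate 1 or 2. The replicate block gave 381, 275, 103, 317 and 181 called loci. Same-numbered libraries correlated at -0.174 to 0.115 in their deviations from the group means, so the numbers were not taken as pairs. The alternative with GC content or length as a term was not run, since the sequence of the loci was not read. With 3 libraries a group, no share or detection test could pass 0.05.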
